A study of Homo sapiens with 6 samples.

Results

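The enzymes that add methyl groups to histone lysines and to protein arginines, and those that remove them from histone lysines, were compared between HepG2 cells grown in 3D and in 2D. The genes came from a list of 39 symbols chosen by their known function, when earlier results of these data were known. Of these symbols, 37 had a row in the table of 19846 genes. The other 2, WHSC1 and WHSC1L1, are listed there under their newer names NSD2 and NSD3, so they were not counted, and their values are given apart. HepG2 is a human liver tumour cell line. The 3D group (3 samples) grew in a bioreactor of interwoven hollow fibres, with recirculated and continuously fed medium made of equal parts EMEM and DMEM with 10% serum, antibiotics and GlutaMAX. The 2D group (3 samples) grew on plates in EMEM that was changed every 2 days. Medium and feeding thus differed along with the form of culture, and the effects of each cannot be told apart.

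Levels are given as CPM, read counts relative to library size, with library sizes adjusted for composition by the TMM method. A gene was called at an edgeR quasi-likelihood adjusted p under 0.05, adjusted over 15314 genes. Libraries held 9530795 to 15897621 counts in 3D and 16270361 to 17943513 in 2D. Between replicates of a group the counts differed by more than sampling noise, with a chi-square per degree of freedom from 10.3 to 26.7. The labels do not say whether replicates came from separate cultures, so every p-value reflects the spread among these samples alone, which may be technical. In these bulk samples, fewer cells of a type and less RNA per cell cannot be told apart. The 8 hepatocyte markers examined were all present, with a summed level of 30690 to 49280 CPM in 3D and 39470 to 43910 CPM in 2D. Of these APOA1 and TF rose 2.61-fold and 1.63-fold (edgeR adjusted p = 0.000183 and 0.0178), APOB was 2.68-fold lower (0.000614), and the other 5 were not called. The count of higher hepatocyte markers was 5 with another test, DESeq2, and 1 to 5 with 1 library left out. AFP was called higher once counts were corrected for transcript length and GC content (edgeR adjusted p = 0.0375). The endothelial markers found (PECAM1, CDH5 and VWF, with no row for KDR and TEK) summed to 2.46 to 5.49 CPM in 3D and 2.00 to 4.79 CPM in 2D. Of 5 immune markers 3 were present, without rows for PTPRC and CD3E. CD14 averaged 2.15 CPM in 3D, against 1.52 CPM in 2D, and LYZ averaged 722 ± 284 CPM in 3D, against 1276 ± 269 CPM in 2D (SD, n = 3 each, edgeR adjusted p = 0.0555). With the same correction LYZ was called lower (edgeR adjusted p = 0.0235). Of 6 fibroblast and stellate markers 1 was present, ACTA2, which fell to 19.8 ± 3.23 CPM in 3D, against 28.8 ± 0.663 CPM in 2D, a call that was lost without 2D replicate 1. The part of these markers in the results below was not tested.

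Methyl groups on histone H3 carry different information according to the residue. Methylated lysine 4 (H3K4) marks promoters and enhancers, lysine 36 (H3K36) and lysine 79 (H3K79) the bodies of transcribed genes, and lysines 9 (H3K9) and 27 (H3K27) repressed chromatin. Methyltransferases take the methyl group from S-adenosylmethionine. Demethylases either use flavin, as KDM1A and KDM1B do, or belong to the JmjC family, whose members need iron, oxygen and alpha-ketoglutarate. In hepatocytes, as in other cells, the Polycomb complex PRC2 places H3K27 methylation and so holds genes of other lineages silent.

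Of 36 members with enough counts to test, 6 rose in 3D (SMYD3, SUV39H1, KDM1A, EZH2, EED and SMYD2), 14 fell and 16 were not called. Over all tested genes 19.0% rose and 17.6% fell. The share of members that rose was close to this background, and the share that fell was above it, with no test of that difference. This background does not allow for transcript length. In the longest 3 of 10 equal groups of protein-coding genes, which held 22 members, 28.4%, 35.1% and 49.7% of genes fell. The members' median log2 fold change was −0.18, against 0.02 for all tested genes. With the counts corrected for transcript length and GC content (fraction of G and C bases), 6 members rose and 11 fell, against 17.7% and 18.7% of all genes in that fit, and 5 of the rises and 10 of the falls were shared with the uncorrected fit. The 6 members that rose had transcripts of 1548 to 3059 bases, and the 14 that fell of 4437 to 19419 bases. By role, 5 of 24 tested methyltransferases and PRC2 subunits rose and 8 fell, while 1 of 12 demethylases rose and 6 fell. With length and GC content corrected 5 methyltransferases and PRC2 subunits rose and 8 fell, and 1 demethylase rose and 3 fell.

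**Figure D1:**
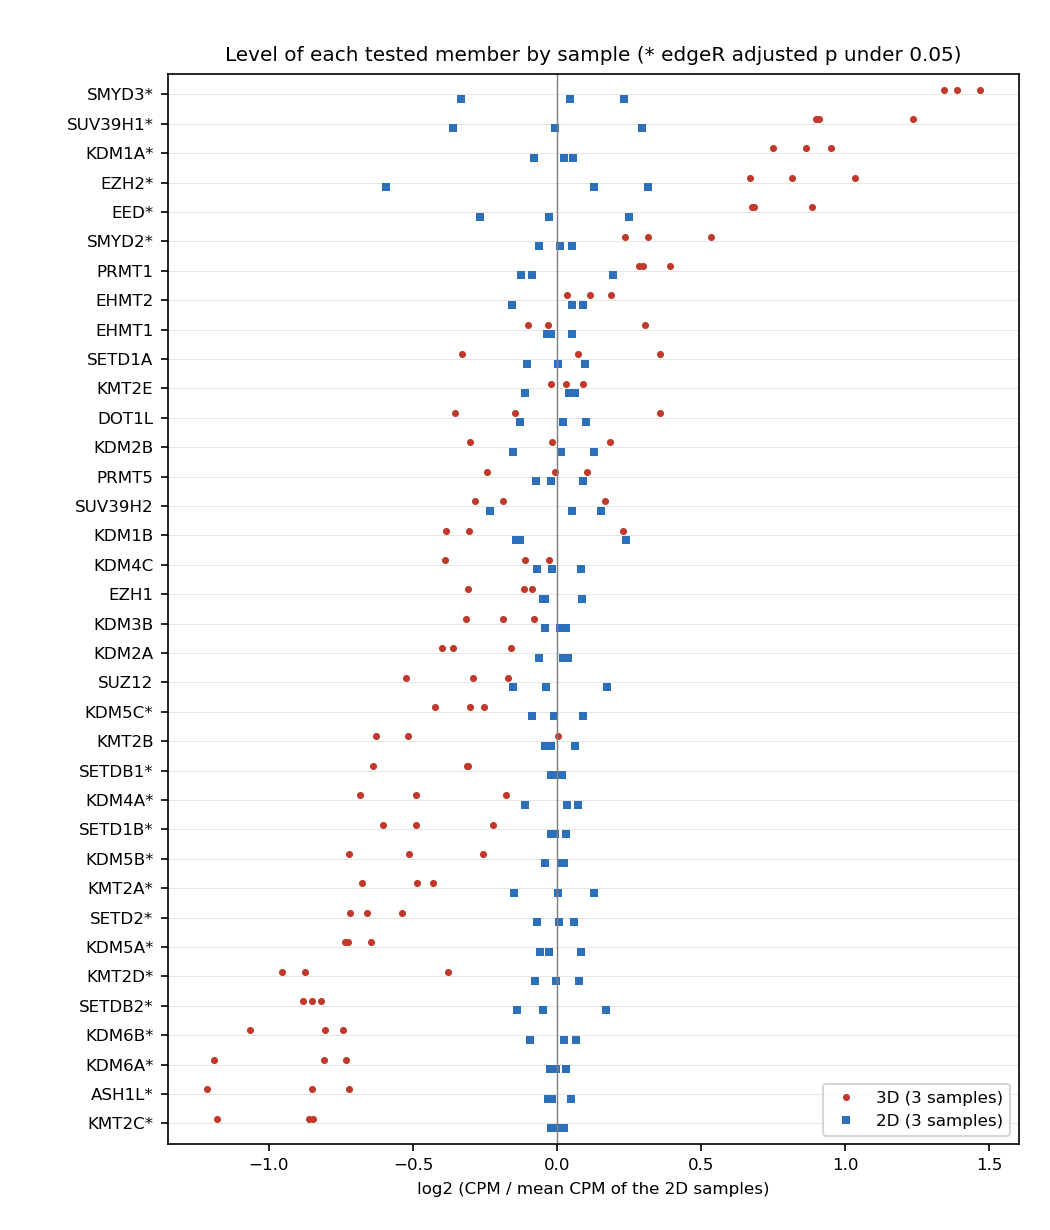
Level of the 36 tested members in every sample, as log2 of CPM over the mean CPM of the 2D samples, with 3D as circles and 2D as squares. Stars mark members called by edgeR. The 3 values of SMYD3 in 3D lie furthest to the right, and those of KMT2C and ASH1L are among the furthest to the left.

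Promoters of 3 members that rose and 1 that fell are shown, chosen for the motifs they hold or lack. EZH2, SMYD2 and SMYD3 hold a match to TTTNNCGC, called E2F-type here. KDM6A, a demethylase of the same residue as EZH2, holds none. N stands for any base, so the pattern is loose. A match need not be a site of the E2F factors, which drive genes of DNA replication. The sequences are from RefSeq (GRCh38.p14), run 5′ to 3′ on the gene's strand, and cover 250 bases before and 50 after the start site. Capitals mark matches on either strand to TTTNNCGC (E2F-type) or to CCAAT (the box bound by NF-Y), which do not overlap each other here. These motifs were chosen after the fold changes were known.
EZH2 (chr7:148884242-148884541, minus strand): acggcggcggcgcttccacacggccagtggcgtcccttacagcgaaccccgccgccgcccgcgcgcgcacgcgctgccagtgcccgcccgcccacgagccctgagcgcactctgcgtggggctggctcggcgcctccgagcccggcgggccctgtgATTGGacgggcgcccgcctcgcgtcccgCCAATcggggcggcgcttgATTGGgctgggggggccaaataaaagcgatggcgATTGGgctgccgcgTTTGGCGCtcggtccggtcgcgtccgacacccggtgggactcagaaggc
SMYD2 (chr1:214280909-214281208, plus strand): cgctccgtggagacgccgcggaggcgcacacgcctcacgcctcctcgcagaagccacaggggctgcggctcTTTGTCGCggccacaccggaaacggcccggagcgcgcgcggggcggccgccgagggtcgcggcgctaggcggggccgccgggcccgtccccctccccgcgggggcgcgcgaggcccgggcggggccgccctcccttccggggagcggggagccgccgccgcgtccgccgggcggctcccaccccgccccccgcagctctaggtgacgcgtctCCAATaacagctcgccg
SMYD3 (chr1:246507230-246507529, minus strand): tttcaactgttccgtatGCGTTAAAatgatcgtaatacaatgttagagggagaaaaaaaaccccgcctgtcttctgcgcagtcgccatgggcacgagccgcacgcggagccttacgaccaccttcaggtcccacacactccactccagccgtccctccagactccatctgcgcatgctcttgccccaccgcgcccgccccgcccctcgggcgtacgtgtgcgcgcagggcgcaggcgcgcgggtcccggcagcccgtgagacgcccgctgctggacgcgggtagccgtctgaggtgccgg
KDM6A (chrX:44872938-44873237, plus strand): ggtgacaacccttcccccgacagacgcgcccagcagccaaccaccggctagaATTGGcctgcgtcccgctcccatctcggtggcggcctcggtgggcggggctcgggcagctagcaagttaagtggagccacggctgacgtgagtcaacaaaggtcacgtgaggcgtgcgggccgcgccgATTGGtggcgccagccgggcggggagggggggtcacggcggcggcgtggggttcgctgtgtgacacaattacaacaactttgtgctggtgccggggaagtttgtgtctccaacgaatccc
Of the members, 35 had a promoter in the table; DOT1L and SETD1B did not. Where a gene had several, the one nearest to the deposited gene start was used. The E2F-type motif was found in 3 of the 6 promoters of members that rose, and not in those of SUV39H1, KDM1A and EED, which also rose. It was found in 1 of 13 of those that fell (KMT2D) and in 3 of 15 of those not called (EZH1, SUZ12 and KDM1B). Of 35116 promoters of the same length 6.9% held it. CCAAT was found in 3 of 6, 3 of 13 and 5 of 15, in the same order, against 34.6% of all promoters. NSD1, which was not tested, held neither. The EZH2 promoter held 1 E2F-type match and 4 CCAAT matches, and the KDM6A promoter held 2 CCAAT matches. The promoter used lay 37110 bases from the deposited start for KDM4C, 1485 for PRMT1, 1050 for KDM5B and 1019 for KMT2D, while those printed lay within 57 bases. A match describes these letters only and does not show that a factor binds there.

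Of the 4 core PRC2 subunits 2 rose, EZH2 and EED, and 2 were not called, EZH1 and SUZ12. Both H3K27 demethylases, KDM6A and KDM6B, fell. Over all tested genes 19.0% rose and 17.6% fell. Protein-coding genes were split by transcript length into 10 equal groups. In the groups that held EED and EZH2 26.5% and 26.1% of genes rose, and in those of KDM6A and KDM6B 28.4% and 35.1% fell. EZH2, the catalytic subunit of dividing cells (chromosome 7, 148807383 to 148884322, hg38), had 57.3, 44.5 and 49.2 CPM in 3D, against 30.6, 18.6 and 34.8 CPM in 2D. All 3D samples stood above all 2D samples, and 2D replicate 2 was the lowest. EZH2 rose 1.80-fold (log2 0.85, SE 0.21, edgeR adjusted p = 0.0104). EED, the subunit that reads H3K27 trimethylation, had 15.6, 15.5 and 17.9 CPM in 3D and 9.52, 8.06 and 11.5 CPM in 2D, again with no overlap (1.68-fold higher, log2 0.75, SE 0.18, edgeR adjusted p = 0.00734).

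The other core subunits were not called. SUZ12, the scaffold of PRC2, had 47.5, 60.8 and 55.9 CPM in 3D and 66.6, 61.5 and 77.0 CPM in 2D (log2 −0.32, SE 0.14, edgeR adjusted p = 0.0882). The near-identical copy SUZ12P1 may share its reads, so its value is uncertain. EZH1, the catalytic paralogue found mainly in resting cells, had 16.9, 16.5 and 14.5 CPM in 3D and 19.0, 17.3 and 17.4 CPM in 2D (log2 −0.17, SE 0.15, edgeR adjusted p = 0.394). The groups of each of these genes did not overlap, but the differences were close to the spread between replicates. Per kilobase of transcript, the ratio of EZH2 to EZH1 was 5.96, 4.72 and 5.95 in 3D and 2.81, 1.87 and 3.50 in 2D. The difference of the log2 ratios was 1.06, and the exact two-sided permutation p was 0.1, the smallest that 3 against 3 samples allow.

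KDM6A, the X-linked H3K27 demethylase (chromosome X, 44873177 to 45112603), had 18.6, 24.2 and 25.5 CPM in 3D and 41.6, 42.2 and 43.2 CPM in 2D. The 2D samples lay within a narrow range and every 3D sample was far below them (log2 −0.89, SE 0.14, edgeR adjusted p = 0.000852). KDM6B, which is induced by inflammatory and stress signals, had 66.4, 55.5 and 69.4 CPM in 3D and 118, 121 and 109 CPM in 2D (log2 −0.87, SE 0.12, edgeR adjusted p = 0.000452). With length and GC content corrected the log2 fold change of KDM6A was −0.61 and that of KDM6B −0.95, and EZH2 and EED had 0.86 and 0.70. All 4 calls were kept in that fit.

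**Figure D2:**
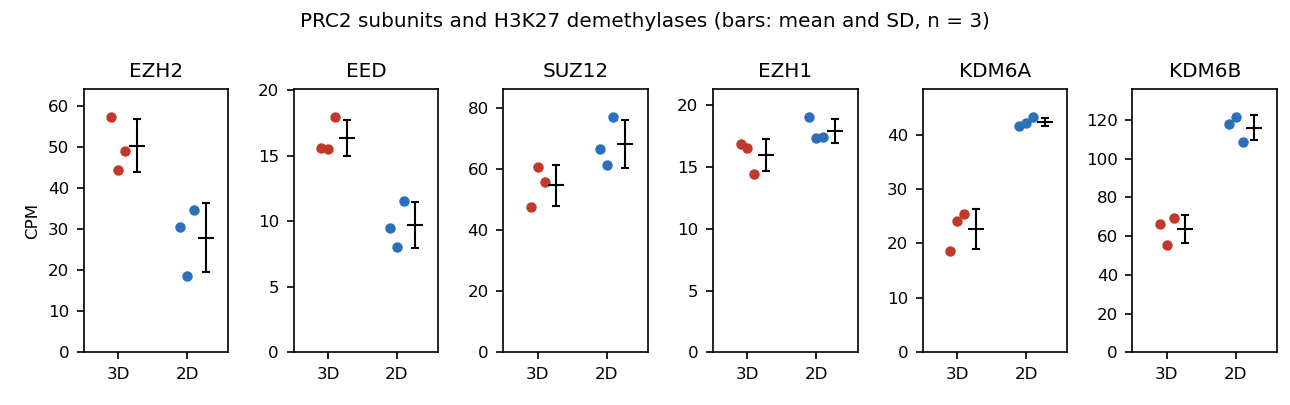
CPM of the PRC2 subunits and the H3K27 demethylases in each sample, 3D left of 2D, with the mean and SD beside the points. EZH2 and EED are higher in all 3D samples, KDM6A and KDM6B lower in all of them.

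H3K4 methyltransferases fell in 4 of 7 cases and rose in 0, against 17.6% and 19.0% of all tested genes. All 7 had transcripts in the 2 longest of 10 equal groups of protein-coding genes, where 35.1% and 49.7% fell. KMT2C and KMT2D, paralogues that monomethylate H3K4 at enhancers, were among the 4 methyltransferases that fell. KMT2C (chromosome 7, 152134922 to 152436006) had 39.7, 39.3 and 31.4 CPM in 3D and 71.3, 70.2 and 72.5 CPM in 2D, with a log2 fold change of −0.96 (SE 0.13, edgeR adjusted p = 0.000311). KMT2D had 136, 96.3 and 90.9 CPM in 3D and 176, 167 and 186 CPM in 2D (log2 −0.72, SE 0.15, edgeR adjusted p = 0.00423), and 3D replicate 1 stood well above the other 3D samples. KMT2A, the MLL protein that maintains HOX gene expression, had 78.5, 75.5 and 66.2 CPM in 3D and 106, 95.5 and 116 CPM in 2D (log2 −0.53, SE 0.12, edgeR adjusted p = 0.00693). With length and GC content corrected KMT2A was not called (log2 −0.25, adjusted p = 0.0528). SETD1B, which trimethylates H3K4 at promoters, had 40.4, 31.0 and 33.5 CPM in 3D and 46.4, 48.1 and 46.8 CPM in 2D (log2 −0.43, SE 0.13, edgeR adjusted p = 0.0249). This call was lost without 2D replicate 1, 2 or 3 (edgeR adjusted p = 0.0713, 0.0715 and 0.0624) and without 3D replicate 2 or 3 (0.0598 and 0.0629).

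Other H3K4 methyltransferases were not called. SETD1A, the paralogue of SETD1B, averaged 86.7 ± 20.2 CPM in 3D, against 83.1 ± 5.71 CPM in 2D (SD, n = 3 each), with a log2 fold change of 0.06. KMT2E, a SET-domain protein without a clear enzymatic activity of its own, averaged 57.6 ± 2.21 CPM in 3D, against 56.3 ± 3.66 CPM in 2D (log2 0.03), and was called higher once length and GC content were corrected (log2 0.37, edgeR adjusted p = 0.0120). KMT2B, the closest paralogue of KMT2A, had 75.3, 48.6 and 52.5 CPM in 3D and 72.9, 78.5 and 74.0 CPM in 2D (log2 −0.36, edgeR adjusted p = 0.0982). Its groups overlapped through 3D replicate 1 alone. Without 3D replicate 1 it was called lower (log2 −0.59, edgeR adjusted p = 0.00245), and likewise with length and GC content corrected (log2 −0.52, adjusted p = 0.00222).

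Among the 5 H3K4 demethylases 1 rose and 3 fell, against 19.0% and 17.6% of all tested genes. KDM1A, known as LSD1 (chromosome 1, 23019448 to 23083690), had 168.9, 179 and 156 CPM in 3D and 94.3, 87.7 and 96.4 CPM in 2D. Its rise was 1.81-fold (log2 0.86, SE 0.12, edgeR adjusted p = 0.000311). It had the highest level per kilobase of all demethylases, at 54.9 CPM per kilobase in 3D and 30.3 in 2D. Its paralogue KDM1B averaged 17.2 ± 4.18 CPM in 3D, against 18.8 ± 2.92 CPM in 2D, and was not called. The JmjC demethylases of H3K4, KDM5A, KDM5B and KDM5C, all fell as fitted. Their transcripts lay in the 2 longest of 10 equal groups of protein-coding genes, where 35.1% and 49.7% fell. With length and GC content corrected 1 of them, KDM5A, was called. KDM5A had 44.8, 47.7 and 45.1 CPM in 3D and 71.6, 73.2 and 79.03 CPM in 2D (log2 −0.70, SE 0.11, edgeR adjusted p = 0.000875), and its log2 fold change was −0.31 with length and GC content corrected. KDM5B had 46.9, 64.8 and 54.2 CPM in 3D and 75.1, 78.6 and 78.4 CPM in 2D (log2 −0.48, SE 0.14, edgeR adjusted p = 0.0160), but its log2 fold change was −0.13 with length and GC content corrected (adjusted p = 0.413). The X-linked KDM5C had 92.2, 82.1 and 89.2 CPM in 3D and 117, 104 and 109 CPM in 2D (log2 −0.33, SE 0.12, edgeR adjusted p = 0.0435). The KDM5C call was lost without 2D replicate 1, 2 or 3 (edgeR adjusted p = 0.172, 0.0679 and 0.101), without 3D replicate 2 or 3 (0.0823 and 0.0711), with upper-quartile scaling (0.0607), with scaling that leaves out mitochondrial and the most abundant genes (0.0509) and with length and GC content corrected (0.0528).

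Of the H3K9 methyltransferases 1 of 6 was higher and 2 were lower, against 19.0% and 17.6% of all tested genes. SUV39H1, the enzyme of pericentric heterochromatin (chromosome X, 48695554 to 48709013), had 18.9, 14.99 and 15.1 CPM in 3D and 6.26, 8.002 and 9.88 CPM in 2D. Its samples did not overlap, and it rose 2.02-fold (log2 1.02, SE 0.20, edgeR adjusted p = 0.00263). Its paralogue SUV39H2 averaged 17.6 ± 2.99 CPM in 3D, against 18.7 ± 2.51 CPM in 2D (log2 −0.09). SETDB2, a relative of SETDB1, had 12.99, 12.7 and 12.4 CPM in 3D and 25.8, 20.9 and 22.2 CPM in 2D (log2 −0.85, SE 0.15, edgeR adjusted p = 0.00138), and log2 −0.50 with length and GC content corrected. SETDB1, which silences retroelements together with TRIM28, had 34.5, 34.4 and 27.4 CPM in 3D and 42.1, 43.3 and 42.8 CPM in 2D (log2 −0.41, SE 0.13, edgeR adjusted p = 0.0307). SETDB1 overlaps CERS2 on the other strand, which had 23159 counts against its own 3429 over all libraries, and how strand was handled is not given, so this value is uncertain. Its call was also lost without 2D replicate 1, 2 or 3 (edgeR adjusted p = 0.0840, 0.0819 and 0.0781) and without 3D replicate 3 (0.0907). EHMT1 and EHMT2, partners that mono- and dimethylate H3K9, averaged 48.9 ± 7.60 and 68.0 ± 3.61 CPM in 3D, against 46.7 ± 1.54 and 62.9 ± 5.62 CPM in 2D, and neither was called.

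Demethylases of H3K9 and H3K36 had 1 of 5 members lower and 0 higher, against 17.6% and 19.0% of all tested genes. With length and GC content corrected 0 of 5 were called. KDM4A, which acts on both residues, had 25.9, 29.7 and 36.8 CPM in 3D and 43.8, 38.5 and 42.6 CPM in 2D (log2 −0.43, SE 0.15, edgeR adjusted p = 0.0403). Its call was lost without 2D replicate 1, 2 or 3 (edgeR adjusted p = 0.133, 0.0555 and 0.103), without 3D replicate 1 or 2 (0.0726 and 0.0884) and with length and GC content corrected (0.0611). Its relative KDM4C averaged 28.3 ± 3.58 CPM in 3D, against 31.7 ± 1.73 CPM in 2D. KDM2A, an H3K36 demethylase that binds CpG islands, averaged 58.1 ± 5.26 CPM in 3D, against 71.6 ± 2.65 CPM in 2D (log2 −0.31, edgeR adjusted p = 0.0634, and log2 −0.39 with adjusted p = 0.0162 without 3D replicate 1). KDM2B, which brings Polycomb proteins to CpG islands, averaged 39.2 ± 6.51 CPM in 3D, against 40.0 ± 3.88 CPM in 2D. KDM3B, an H3K9 demethylase, averaged 77.2 ± 6.35 CPM in 3D, against 88.2 ± 2.32 CPM in 2D.

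Of the H3K36 methyltransferases, the members ASH1L and SETD2 fell, as did NSD3, while NSD2 was not called. ASH1L, which dimethylates H3K36 and counters Polycomb repression, had 43.4, 39.7 and 30.9 CPM in 3D and 70.9, 74.1 and 70.2 CPM in 2D (log2 −0.92, SE 0.14, edgeR adjusted p = 0.000614). SETD2, the enzyme that trimethylates H3K36 behind RNA polymerase II, had 73.2, 79.7 and 70.2 CPM in 3D and 110.2, 120.5 and 116 CPM in 2D (log2 −0.64, SE 0.11, edgeR adjusted p = 0.00148). With length and GC content corrected the log2 fold changes were −0.56 for ASH1L and −0.28 for SETD2, and both calls were kept. NSD1 was almost without reads: it had 5, 4 and 3 counts in 3D and 13, 6 and 9 counts in 2D, too few to test. A floor of 3 counts corresponds to 0.194 to 0.298 CPM in 3D and 0.167 to 0.188 CPM in 2D, and NSD1 averaged 0.322 CPM in 3D and 0.559 CPM in 2D. Its relatives were well measured. NSD2, formerly WHSC1, averaged 119 ± 22.1 CPM in 3D, against 112 ± 17.4 CPM in 2D (log2 0.09, edgeR adjusted p = 0.699), and NSD3, formerly WHSC1L1, fell to 54.5 ± 5.44 CPM in 3D, against 87.7 ± 2.90 CPM in 2D (log2 −0.69, SE 0.12, edgeR adjusted p = 0.00131, and log2 −0.28 with length and GC content corrected). DOT1L, the H3K79 methyltransferase, which has no SET domain, averaged 95.1 ± 25.0 CPM in 3D, against 96.2 ± 7.72 CPM in 2D (log2 −0.02). Genes on the other strand overlap DOT1L, among them AP3D1 with 16300 counts against its own 8500, so its value is uncertain.

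SMYD3 had the largest rise of the 36 tested members. It encodes a lysine methyltransferase of histones and of the kinase MAP3K2 and spans chromosome 1, 245749342 to 246507313. It had 17.9, 19.5 and 18.4 CPM in 3D and 7.26, 5.58 and 8.27 CPM in 2D, and its 3D samples lay close together and far above the 2D samples. The rise was 2.64-fold (log2 1.40, SE 0.18, edgeR adjusted p = 0.000261), and log2 1.20 with length and GC content corrected. SMYD2, which methylates p53 and other proteins, had 55.2, 67.9 and 58.3 CPM in 3D and 47.2, 44.9 and 48.5 CPM in 2D (log2 0.37, SE 0.12, edgeR adjusted p = 0.0367). The SMYD2 call was lost without 2D replicate 1, 2 or 3 (edgeR adjusted p = 0.119, 0.151 and 0.0887), without 3D replicate 2 or 3 (0.0923 and 0.0575), without a filter on low counts (0.0621) and with length and GC content corrected (0.0697).

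The main arginine methyltransferases had the highest levels per kilobase of all members and were not called. PRMT1, the main source of asymmetric dimethylarginine, had 171, 172 and 184 CPM in 3D and 160.2, 128 and 132 CPM in 2D. Its groups did not overlap, with a log2 fold change of 0.33 (SE 0.12, edgeR adjusted p = 0.0587), and −0.005 once length and GC content were corrected. With upper-quartile scaling it was called (log2 0.35, adjusted p = 0.0438). PRMT5, the main source of symmetric dimethylarginine, had 158, 171 and 134 CPM in 3D and 169.1, 157 and 151 CPM in 2D (log2 −0.04, SE 0.13, edgeR adjusted p = 0.818). The ratio of PRMT5 to PRMT1 per kilobase was 0.617, 0.660 and 0.487 in 3D and 0.703, 0.813 and 0.764 in 2D. The log2 ratios differed by −0.38 (exact two-sided permutation p = 0.1, the smallest possible here), and by −0.18 with length and GC content corrected. Per kilobase of transcript PRMT1 averaged 104 CPM in 3D, against 83.0 in 2D, and PRMT5 averaged 61.0 in 3D, against 62.8 in 2D. In 3D the next were KDM1A and SMYD2 (36.2 CPM per kilobase), and the lowest above NSD1 were KMT2C (2.18) and SETDB2 (2.07).

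**Figure D3:**
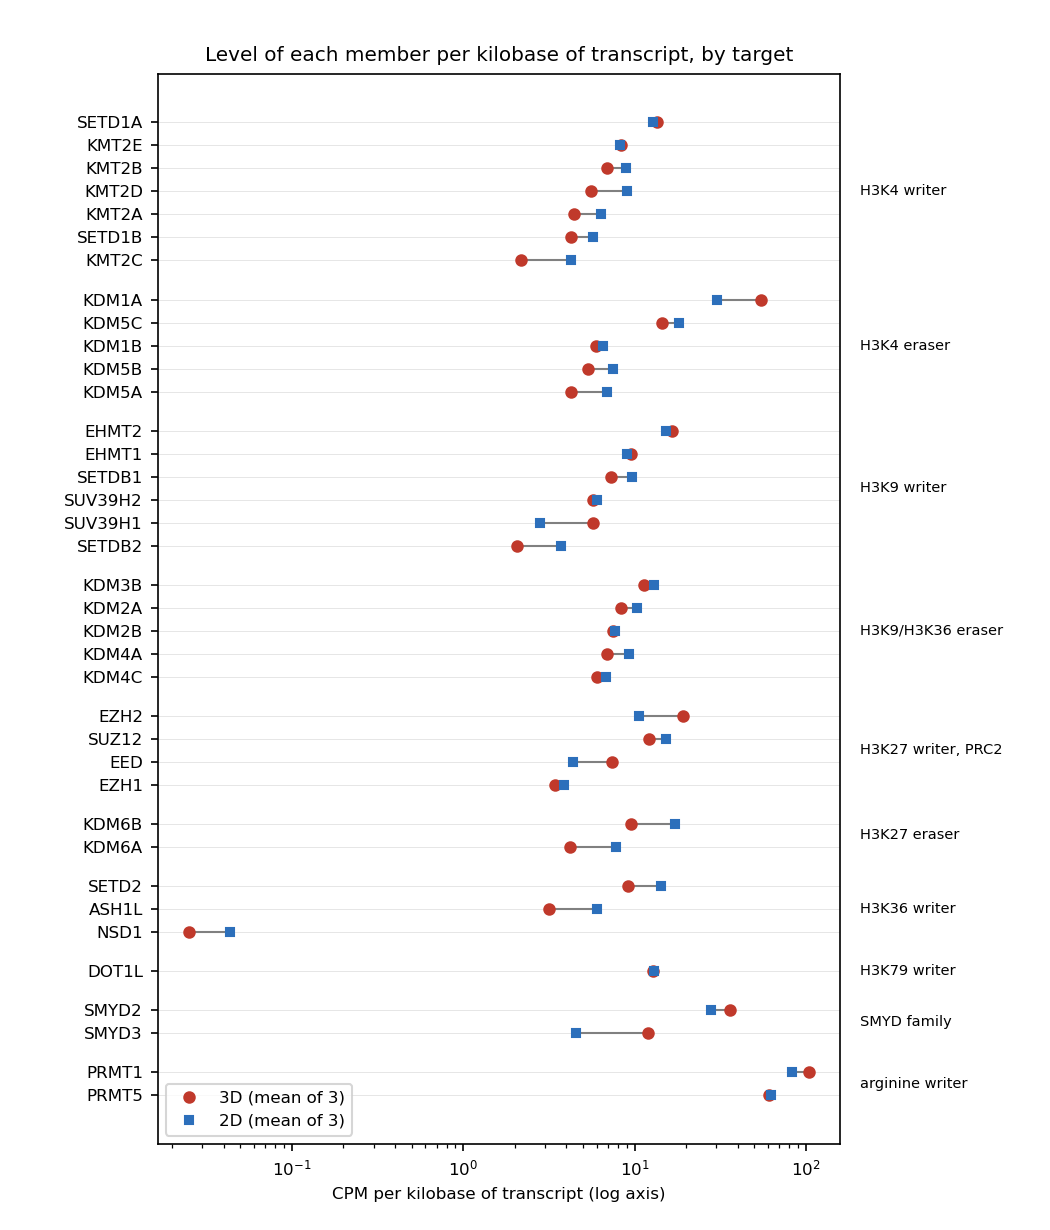
Mean CPM per kilobase of transcript of the 37 members in 3D (circles) and 2D (squares), grouped by target residue, on a log axis. PRMT1, PRMT5 and KDM1A stand highest in 3D, and NSD1 lies far below the rest in both groups.

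Members had long transcripts, with a median of 5331 bases over the 36 tested, from 1548 (SMYD3) to 19419 (KMT2D), against a median of 3271 over 12296 tested protein-coding genes. Of the members, 22 lay in the longest 3 of 10 equal groups of protein-coding genes. In the longest group, from 7347 bases up, 49.7% of all genes fell and 5.53% rose (median log2 fold change −0.43). This group held 10 members (ASH1L, DOT1L, KDM5A, KDM5B, KMT2A, KMT2B, KMT2C, KMT2D, SETD1B and SETD2), and 8 of them fell. In the fourth group, 2289 to 2732 bases, which holds EZH2 and PRMT5, 26.1% rose and 10.7% fell. Across the 36 members the Spearman correlation of length with log2 fold change was −0.75, given as a description of genes that share the same libraries, and it was −0.40 across protein-coding genes. After the correction it was −0.66 across the members and −0.06 across protein-coding genes. Genes on the other strand overlap 16 members, and for 8 of them (KMT2B, KMT2E, SETDB1, SUV39H2, NSD1, DOT1L, KDM2B and KDM5A) a partner held over 10% of the member's counts, so their values are uncertain. KMT2D overlaps PRKAG1 on its own strand, which had 1370 counts against 13072, and KDM4C likewise overlaps RP11-390F4.3, which had 378 counts against 2720. The part of length in any single member's difference was not tested beyond this correction.

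**Figure D4:**
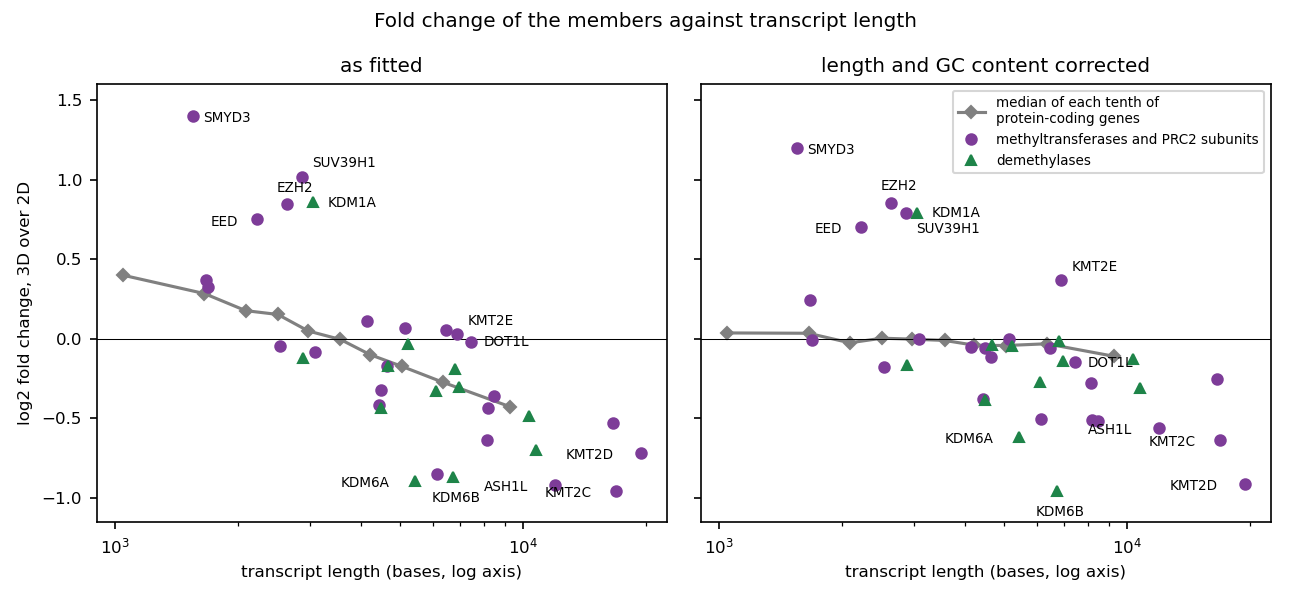
Log2 fold change (3D over 2D) of the 36 tested members against transcript length on a log axis, as fitted and after correction for length and GC content. Grey diamonds are medians of 10 equal groups of protein-coding genes at their median length; they run from 0.40 to −0.43 as fitted and from 0.04 to −0.11 after correction, while KMT2C, KMT2D, KDM6A and KDM6B stay low and SMYD3 stays high.

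Partner proteins of these enzymes were described with the same fit, against the same background shares. Of 12 subunits and partners of the H3K4 methyltransferase complexes 3 were higher and 1 was lower (median log2 fold change 0.13). WDR5, the subunit shared by all of these complexes, rose to 88.7 ± 6.45 CPM in 3D, against 66.3 ± 1.85 CPM in 2D, and NCOA6, a partner of KMT2C and KMT2D, fell to 89.7 ± 1.98 CPM in 3D, against 142 ± 6.53 CPM in 2D. PAXIP1 and PAGR1, which bind the same 2 enzymes, rose (log2 0.40 and 0.64), but PAGR1 was not called with length and GC content corrected (log2 0.23, edgeR adjusted p = 0.197). Leaving out 2D replicate 1, 2 or 3 gave 1 higher gene in this list, and leaving out 3D replicate 1 gave 4. Of 7 PRC2 partners 0 rose and 2 fell, AEBP2 (log2 −0.38) and PHF1 (log2 −0.37); with length and GC content corrected 3 rose and 1 fell, and without 2D replicate 1 or 2 or 3D replicate 3 the count of lower genes was 0. PRC1, the Polycomb complex that binds H3K27 trimethylation and ubiquitinates histone H2A, had 2 of 19 subunits higher and 7 lower, with a median of −0.25. BMI1, which partners its RING ubiquitin ligase, fell to 42.2 ± 2.05 CPM in 3D, against 79.5 ± 2.31 CPM in 2D (log2 −0.91, edgeR adjusted p = 0.000215). PHC3, another subunit, fell too (log2 −0.89), while CBX2, which holds a chromodomain, rose to 39.8 ± 13.6 CPM in 3D, against 22.6 ± 2.15 CPM in 2D, and PCGF6 rose as well (log2 0.48). Leaving out 2D replicate 1 gave 1 higher PRC1 subunit, and leaving out 2D replicate 2 or 3 or 3D replicate 2 gave 0.

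Of 8 readers and partners of H3K9 methylation 3 rose and 2 fell. CBX1 and CBX3, heterochromatin proteins that bind methylated H3K9, rose to 90.7 ± 12.3 and 246 ± 25.5 CPM in 3D, against 61.0 ± 6.37 and 159.5 ± 23.1 CPM in 2D. TRIM28 rose (log2 0.40), and ATF7IP, which stabilises SETDB1, fell (log2 −0.72), as did CDYL (log2 −0.37). TRIM28 and ATF7IP were not called in the corrected fit (log2 0.11 and −0.30, edgeR adjusted p = 0.452 and 0.109). CBX5, not called as fitted, was called higher in the corrected fit (log2 0.83, edgeR adjusted p = 0.0108). The count of higher genes was 2 without 2D replicate 1, 2 or 3 or 3D replicate 1, and that of lower genes was 1 without 2D replicate 1, 2 or 3. Of 8 genes of the CoREST complex, in which KDM1A works with histone deacetylases, 1 rose and 2 fell. HMG20B rose to 52.4 ± 14.5 CPM in 3D, against 29.9 ± 3.83 CPM in 2D, whereas the scaffolds RCOR1 and RCOR3 fell (log2 −0.44 and −0.42). HMG20B and RCOR1 were not called in the corrected fit (log2 0.34 and −0.21, edgeR adjusted p = 0.0899 and 0.146). The count of lower genes was 0 without 2D replicate 1 or 3 or 3D replicate 3, and 1 without 2D replicate 2 or 3D replicate 1. HDAC1 and HDAC2 were not called, but HDAC2 was called higher in the corrected fit (log2 0.41, edgeR adjusted p = 0.0142).

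Further histone demethylases fell in 5 of 11 cases and rose in 1, against 17.6% and 19.0% of all tested genes. Their median log2 fold change was 0.06, and in the corrected fit 4 fell and 2 rose. KDM7A fell to 65.1 ± 6.13 CPM in 3D, against 137 ± 4.52 CPM in 2D (log2 −1.08, edgeR adjusted p = 0.000111), JMJD1C to 57.6 ± 7.58 CPM in 3D, against 113 ± 7.51 CPM in 2D, and PHF8 to 32.5 ± 3.22 CPM in 3D, against 67.0 ± 9.91 CPM in 2D. KDM8 rose to 7.32 ± 1.35 CPM in 3D, against 3.90 ± 0.730 CPM in 2D, a call that was lost without 2D replicate 1. Of 12 further methyltransferases 1 rose and 3 fell. SMYD5 rose (log2 0.58), and KMT5A and KMT5B, which methylate lysine 20 of histone H4, fell (log2 −0.45 and −0.49), as did PRDM2 (log2 −0.60). In the corrected fit 1 of the 3 remained called, KMT5A, and KMT5B and PRDM2 were at log2 −0.16 and −0.32 (edgeR adjusted p = 0.282 and 0.129). Of 10 further arginine methyltransferases and partners of PRMT5 2 rose, PRMT7 (log2 0.53) and COPRS (log2 0.58), and 0 fell. COPRS was not called with length and GC content corrected (log2 0.13, edgeR adjusted p = 0.418), and the count of higher genes was 1 without 2D replicate 2 or 3. In the methyl donor cycle 1 of 10 genes rose and 3 fell. MAT2A, which makes S-adenosylmethionine in growing cells, fell to 327.5 ± 38.8 CPM in 3D, against 623 ± 181 CPM in 2D (log2 −0.93, edgeR adjusted p = 0.00368). BHMT, which remethylates homocysteine with betaine, rose to 6.60 ± 3.00 CPM in 3D, against 1.21 ± 0.631 CPM in 2D, and MTRR and AHCYL2 fell (log2 −0.52 and −0.68).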

How the data were processed

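The authors deposited 1 table of estimated counts per gene, not scaled to a common total; the aligner STAR 2.4.1d, the use of Partek and the build hg38 are named per the submitters' processing notes. How genes were annotated and counted, and whether strand was used, is not given in the sources used here. Of the values 61.7% were whole numbers, and 11 of the 37 members had fractional values (tolerance 0.02). Counts were rounded. Total counts per library are in the report. Floors cover counting error only, while standard errors include the estimated spread between replicates.

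Groups and replicate numbers came from the sample titles. The test was edgeR 4.0.16 (R 4.3.3): filterByExpr, TMM, robust quasi-likelihood fit with culture as the only term, Benjamini-Hochberg adjustment over all tested genes, called under 0.05. Standard errors were derived from the F statistic. GENCODE 29 gave each gene's transcript length and GC content (APPRIS principal transcript, else the longest), matched for 16207 genes by symbol and 288 by another symbol with overlapping coordinates, which covers 90.0% of the tested genes. The corrected fit added loess offsets (span 0.5) per sample. Alternatives were DESeq2 1.42.0, limma-voom 3.58.1, other scalings and filters, protein-coding genes only, the replicate block and leaving out libraries. The scripts were tested on simulated data. Members, roles and lists were chosen with earlier results of these data known. Per-sample values are given for members called at 1 CPM or more and for PRC2 and the arginine enzymes, and up to 3 called genes per direction are named from each further list; KMT2B and the counts of NSD1 are shown by sample outside this rule. Some genes that the rule would name are not reported here.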

Additional observations from a re-analysis of the deposited data

How the results depend on the processing

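Under the 18 alternatives to the fit as reported, the members called lower numbered 10 to 15 and those called higher 5 to 7, and no called member changed sign. KMT2C, KMT2D, ASH1L, SETDB2, KDM5A, KDM6A, KDM6B, SMYD3, SUV39H1, KDM1A, EZH2 and EED kept their call in all of them. The calls of SETD1B, SETDB1, SMYD2, KDM4A and KDM5C were lost when certain single libraries were left out, as given in the report; the calls of KMT2A and KDM5B were lost with length and GC content corrected (adjusted p = 0.0528 and 0.413), that of KDM5B also without 2D replicate 2 and 3D replicate 1 together (0.0697), and that of SETD2 with the replicate block added to the correction (0.0617). The cause was not tested. Leaving out both 2D replicate 2 and 3D replicate 1 gave the members a median log2 fold change of −0.30, and without any 1 library it was −0.26 to −0.12. The count of all genes higher in 3D was 2910 in the full fit and lay between 1938 (without 2D replicate 1) and 2817 when 1 library was left out. The difference in the PRMT5 to PRMT1 log2 ratio was −0.18 with length and GC content corrected.

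Changes of sign concerned members that were not called. With length and GC content corrected the log2 fold changes were −0.057 for SETD1A, 0.001 for SUV39H2, −0.053 for EHMT2 and −0.005 for PRMT1, and with the replicate block added −0.065, 0.005 and −0.055 for SETD1A, SUV39H2 and EHMT2. DOT1L was at 0.008 with upper-quartile scaling. With both of those libraries left out KMT2E was at −0.032, SETD1A at −0.130, EHMT1 at −0.096 and KDM1B at 0.078. Leaving out 1 library gave −0.262 to 0.121 for DOT1L, −0.079 to 0.138 for EHMT1, −0.159 to 0.084 for KDM2B, −0.037 to 0.058 for KMT2E, −0.125 to 0.044 for PRMT5 and −0.131 to 0.216 for SETD1A.

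Same-numbered samples of the groups did not deviate together (correlations of 0.05, −0.01 and −0.08), so the numbers were not taken as pairs. With the replicate block 13 members fell and 5 rose, the calls of SMYD2 and KDM5C being lost (adjusted p = 0.0634 and 0.0737). Depth limits NSD1, which had 40 counts over all libraries.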

Other observations

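Within the 3D group, replicate 1, the library with the fewest counts, was higher for most members rich in G and C. For the 8 tested members with a GC content of 58% or more, a limit chosen after the values were seen, its level was 1.32-fold that of the mean of the other 3D samples (median, with 0.5 CPM added), against 1.01-fold for the other 28. The log2 ratio was 0.60 for DOT1L, 0.57 for KMT2B, 0.53 for KMT2D, 0.47 for SETD1A, 0.32 for SUV39H1 and SETD1B, 0.09 for KDM6B and 0.00 for EHMT2. Across the 36 members the Spearman correlation of GC content with this ratio was 0.59, and across 13784 tested genes it was 0.42, as a description of genes that share the same libraries. Of the 8 members rich in G and C, replicate 1 was the highest 3D sample in DOT1L, KMT2B, KMT2D, SETD1A, SETD1B and SUV39H1. Replicate 3 was the highest in KDM6B and EHMT2. Replicate 1 was also the highest in several members below 58%, among them EZH2, EHMT1 and KMT2A.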
